A study of Mus musculus with 6 samples.

Results

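Pi16 fibroblasts are those fibroblasts of the genioglossus, a muscle that protrudes the tongue, which carried more transcripts of Pi16, Pcolce2, Scara5 and Adgrd1 than of an opposing set of interstitial fibroblast genes. They numbered 1564 of the 56309 barcodes with at least 300 genes. A barcode was a member if it had at least 1 UMI (unique molecular identifier, a counted transcript) of Pdgfra, the receptor that marks mesenchymal fibroblasts. It also needed at least 3 UMIs summed over Pi16, Pcolce2, Scara5 and Adgrd1, and that sum had to exceed the sum of Smoc2, Cxcl14, Myoc and Hmcn2. Barcodes with 6 or more UMIs of the acute-phase genes Saa3 and Serpina3n, with more than 1 UMI of the tendon genes Tnmd and Thbs4, or with any UMI of Pecam1, Cdh5 or Ptprc were left out. The last 3 genes mark endothelial and blood-derived cells.

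The tissue came from male mice, from a control group and from a group in which obstructive sleep apnea (OSA), in which the upper airway closes again and again during sleep, had been modelled, both at week 4. Each group had 3 droplet libraries on the 10x Genomics platform, all of batch 1, and the genotype, strain and age and the way the model was made are not given in the sources used here. The counts used are those of 4 libraries, control 2 and OSA 1 to 3; the other controls, replicates 1 and 3, were not analysed here. The labels do not say whether the libraries came from separate animals, so every p below rests on libraries. It measures the spread between libraries or, where 2 classes of cells from the same libraries are compared, the spread of the class difference between libraries. In each comparison of OSA with control the lone control library is assumed to vary like the 3 OSA libraries.

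Pi16-positive fibroblasts are described in many mouse organs as a population of the connective tissue around vessels and between tissue layers. Their known products include elastic-fibre proteins, hyaluronan-forming enzymes and secreted ligands, and they are often regarded as a reserve from which more specialised fibroblasts arise. Pi16 is a secreted peptidase inhibitor, Pcolce2 enhances the trimming of procollagen, Scara5 is a scavenger receptor that takes up ferritin, and Adgrd1 is an adhesion G protein-coupled receptor. Cxcl13, a chemokine that attracts B cells, was taken as a further marker and was not used to choose the members. The files hold no positions of cells, so whether the members lay in an adventitia was not measured.

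Members numbered 475 in the control library and 263, 328 and 498 in OSA replicates 1, 2 and 3. Barcodes with 1 Pdgfra UMI or more numbered 9009, and 4653 of these had no UMI of Pecam1, Cdh5 or Ptprc. The tendon limit left 2884 fibroblast-gated barcodes, of which 1564 were members, 891 met the mirror-image rule and are called Smoc2 fibroblasts, and 123 carried 6 or more acute-phase UMIs. Control members held a median of 8284 UMIs and OSA members 7728, 8377.5 and 7162.5, against 7062, 6195, 6950 and 6686 in Smoc2 fibroblasts. The libraries held 70217449 to 82184913 UMIs, every pair of them shared 52 to 67 cell barcodes (at most 0.468% of a library), and Scrublet called 21 of the 1564 members doublets.

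The values that chose the members are given as a description. Members were selected on these UMI sums. The median control member had 23 UMIs of the 4 marker genes and the median OSA members 21, 24 and 20, against a median of 1 UMI of the opposing genes in each. All 4 marker genes were present in 826 members, 3 of them in 472, 2 in 219 and 1 in 47. Pi16 itself had a UMI in 94.1% of control members and in 92.4%, 94.5% and 93.6% of those in OSA replicates 1, 2 and 3. Few barcodes lay at the edges of the rule. Of the members 38 had exactly 3 marker UMIs, while 30 barcodes just outside had 2, and 43 were left out because their marker and opposing sums were equal. The acute-phase limit removed 2 control barcodes and 5, 16 and 59 OSA barcodes, with 16 members at 5 UMIs and 11 barcodes outside at 6. Members without any Saa3 or Serpina3n UMI made up 89.1% of the control members and 76.0%, 74.4% and 63.7% of the OSA members, so this limit acted unequally on the groups.

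The class was a small share of each library. Members were 3.47% of control barcodes with 300 or more genes (exact binomial 95% interval 3.17 to 3.79) and 1.67%, 2.61% and 3.48% in OSA replicates 1, 2 and 3. OSA replicate 1 was the lowest and OSA replicate 3 matched the control, so the groups overlapped. The mean OSA share of 2.59% ± 0.903 (SD, n = 3) lay 0.881 percentage points under the control, and a two-sided exact permutation test over libraries gave p = 0.75, where 1 library against 3 cannot go below 0.25. Without OSA replicate 1 the difference was -0.425 points. With barcodes thinned to 2000 UMIs, which left out 10897 shallower barcodes, it was -0.201 points.

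Within the fibroblast gate the control was above every OSA library. Members were 59.3% of gated barcodes in the control (55.8 to 62.7) and 48.5%, 51.6% and 55.03% in OSA replicates 1, 2 and 3, a mean of 51.7% ± 3.25 (SD, n = 3) that was 7.59 points lower (exact permutation p = 0.25, the smallest possible). After thinning, the shares were 42.5% and 36.3%, 38.8% and 43.2%, the libraries overlapped, and the difference was -3.07 points (exact permutation p = 0.75). Without the limit on Saa3 and Serpina3n it was -4.52 points (exact permutation p = 0.75). A change in the share of Pi16 fibroblasts was therefore not detectable with these 4 libraries.

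**Figure D1:**
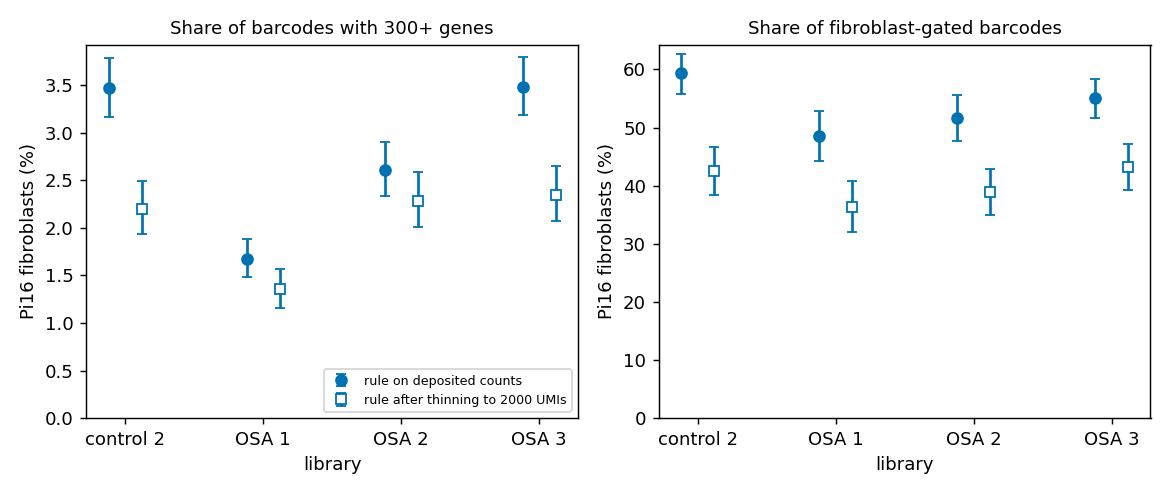
Share of Pi16 fibroblasts in each library, in percent of barcodes with 300 or more genes (left) and of fibroblast-gated barcodes (right); filled circles use the deposited counts, open squares the counts thinned to 2000 UMIs per barcode, and bars are exact binomial 95% intervals that cover counting error only. In the right panel the control lies above the 3 OSA libraries on deposited counts, and OSA replicate 3 lies above it after thinning.

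Markers outside the rule are given next as a description. Cxcl13 and the gene lists were chosen with earlier results of these data known, so they are no independent check of the label. Cxcl13 had a UMI in 27.6% of control members and in 20.9%, 29.0% and 20.1% of OSA members, against 3.16%, 1.99%, 6.98% and 3.15% of Smoc2 fibroblasts. In endothelial barcodes, which should lack the gene, it was 2.26%, 1.28%, 3.64% and 2.20% at median depths of 3958, 3888.5, 4550 and 4196.5 UMIs. These barcodes were taken as the background, and free RNA and doublets were not told apart as its sources. Thinned to 2000 UMIs, the shares were 19.4%, 15.3%, 20.1% and 13.5% of members against 0.956%, 0.701%, 1.54% and 0.807% of endothelial barcodes. The members' share stood above the endothelial background in every library, and thinned Smoc2 fibroblasts lay between 0.565% and 4.93%. Dpp4, a surface peptidase used as a marker of Pi16 fibroblasts, had a UMI in 19.6%, 20.2%, 14.6% and 11.6% of members. The shares were 2.37%, 5.47%, 2.33% and 0.901% of Smoc2 fibroblasts and 0.656% to 1.10% of endothelial barcodes. Thinned to 2000 UMIs, Dpp4 had a UMI in 6.17%, 9.75%, 4.79% and 4.72% of members and in 0.239% to 0.418% of endothelial barcodes. Bmp7, a further such marker, did not set members apart from Smoc2 fibroblasts. It had a UMI in 3.58%, 4.56%, 2.44% and 1.20% of members and in 4.74%, 3.48%, 2.33% and 5.41% of Smoc2 fibroblasts. Its share of endothelial barcodes was 0.230% to 0.308%. All 10 general fibroblast markers were present in members of every library, with 22341 to 28043 CPM (UMIs scaled to a common library total) in sum. Pdgfra, 1 of the 10, was required by the rule, so its presence was fixed, and its 232 to 269 CPM are part of that sum. Endothelial markers other than those set to 0 by the rule summed to 217 to 435 CPM and mural cell markers to 366 to 548 CPM. Schwann cell and glial markers summed to 394 to 749 CPM and immune markers, with Ptprc at 0 by the rule, to 61.4 to 801 CPM. Myofibre markers summed to 38.2 to 180.5 CPM. The labels describe the sampled material as cells of skeletal muscle, whose myofibre markers were at this low level in members.

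Cxcl13 was unevenly spread among members. The control members held 1811 Cxcl13 UMIs and the OSA members 685, 1185 and 833. Members with at least 3 UMIs numbered 84, 37, 60 and 51, which is 17.7%, 14.1%, 18.3% and 10.2% of the class, and they held 96.8%, 96.9%, 96.4% and 92.7% of all its Cxcl13 UMIs. The highest single cell had 121, 74, 101 and 104 UMIs, while 72.4%, 79.1%, 71.04% and 79.9% of members had none. Depth did not separate them in a common direction: the median total was 8397, 8046, 8978.5 and 6738 UMIs in members with 3 or more Cxcl13 UMIs and 8207, 7257.5, 8216 and 7206 in members with none.

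**Figure D2:**
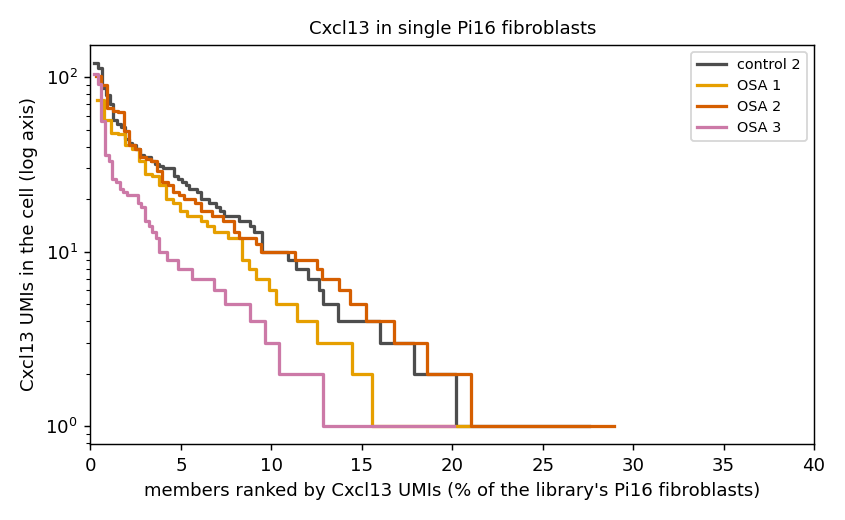
Cxcl13 UMIs in each member (log axis), with the members of a library ranked from the highest and the rank given in percent of that library's Pi16 fibroblasts; 1 line per library. The lines end at 20.1% to 29.0% of members, and the UMIs are concentrated in the leftmost ranks.

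Members with 3 or more Cxcl13 UMIs differed from members with none in other genes, given here with no test because the same cells were split by their counts. Among 9037 genes with enough counts, the 8 with the largest excess in the library where it was smallest were Aox3, Kcnab1, Apoe, Nexmif, Trpm3, Arhgap6, Lgi1 and Il1r1. Apoe, the lipid carrier, lay at 1475, 1156, 666 and 1645 CPM in Cxcl13-positive members of the control and OSA replicates 1, 2 and 3, and at 335, 346, 325 and 664 CPM in members without Cxcl13. Il1r1, the receptor for interleukin 1, lay at 156, 138, 242 and 132 CPM against 84.3, 68.2, 77.8 and 65.7 CPM. The 8 chosen likewise for a deficit were Dio2, Ret, Cilp, Thbs1, Col8a1, Ackr4, Olfml2a and Krt80. Dio2, which activates thyroid hormone, lay at 8.30, 0, 5.55 and 8.26 CPM in Cxcl13-positive members, on 0 to 6 UMIs a library, against 68.9, 42.8, 99.3 and 152 CPM in the others. Ret, the receptor for glial-derived neurotrophic factors, lay at 0, 3.28, 9.25 and 2.75 CPM against 27.3, 41.5, 49.7 and 35.9 CPM. Each of these 16 genes had the same direction in all 4 libraries, which was the ground for choosing it.

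The next comparison asked how Pi16 fibroblasts differed from Smoc2 fibroblasts of the same libraries. Pi16 fibroblasts were higher in the guidance and growth factors Sema3e and Vegfd, in the chemokine gene Cxcl13, in Cmah, Lgi1, Opcml and Sfrp2, and in 8 of 14 complement and 9 of 15 elastic-fibre genes. They were lower in Col15a1 and other basement membrane collagens, in Adamtsl2, Apod and Nmb, and in most immediate early and heat shock genes. Counts were summed per library and class and tested with edgeR's quasi-likelihood test with the library as a block, without the 16 genes of the rule. Of 10259 genes, 1135 (11.1%) were higher and 951 (9.27%) lower in Pi16 fibroblasts, 20.3% in all, at a Benjamini-Hochberg adjusted p under 0.05, and the median log2 difference over all genes was -0.01. Genes that vary with the rule genes among fibroblasts differ between the classes by that choice, so these differences describe how the cells divide along the rule and are not independent support for it. DESeq2 called 1151 genes, 1145 of them shared.

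The secreted ligands stood first. Sema3e, a semaphorin that guides vessels and axons, lay at 55.1, 33.9, 62.1 and 43.9 CPM in Pi16 fibroblasts of the control and OSA replicates 1, 2 and 3, and at 0.564, 0.795, 3.26 and 3.57 CPM in Smoc2 fibroblasts. The log2 difference was 4.59 ± 0.27 (SE; adjusted p = 3.73e-12 by edgeR), and no library of the 2 classes overlapped. Vegfd, a growth factor of lymphatic vessels, lay at 129, 143, 93.3 and 147 CPM against 10.1, 14.3, 7.17 and 15.01 CPM (log2 difference 3.47 ± 0.13). Sema3c, a further semaphorin, lay at 87.1, 79.0, 70.2 and 46.5 CPM against 12.96, 7.16, 13.03 and 9.29 CPM. Of 25 vessel- and nerve-directed ligands tested, 15 were higher in Pi16 fibroblasts and 2 lower, with a median log2 difference of 0.69. The higher ones included Hgf (1.68 ± 0.30), Fgf1 (1.43 ± 0.22) and Pdgfd (1.41 ± 0.19), growth factors for epithelial, mesenchymal and mural cells. Slit3, a guidance ligand and the most abundant of the list in members, was higher by 0.49 ± 0.07. The 2 lower ones were the neurotrophin Ntf3 (-1.34 ± 0.20) and Angptl2 (-0.83 ± 0.09).

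Chemokine and cytokine genes split between the classes, with 6 of 19 higher and 6 lower. Cxcl13 lay at 475, 352, 457 and 247 CPM in Pi16 fibroblasts and at 4.51, 46.1, 33.9 and 22.2 CPM in Smoc2 fibroblasts, a log2 difference of 3.93 ± 0.54 (adjusted p = 0.0225 by edgeR). In OSA replicate 1, a single Smoc2 fibroblast held 55 of the 58 Cxcl13 UMIs of its class. The direction held in all 4 libraries, but the call was lost without OSA replicate 1, 2 or 3 (adjusted p of 0.0784, 0.111 and 0.0928) and without the filter on low counts (0.0516). Ccl19, which draws dendritic and T cells through the receptor CCR7, was higher by 1.04 ± 0.13, and Il6, a cytokine of the acute-phase response, by 0.79 ± 0.10. Ccl11, the eosinophil chemokine eotaxin, was lower by a log2 difference of -1.13 ± 0.09, with 454 to 755 CPM in Pi16 fibroblasts and 1101 to 1585 CPM in Smoc2 fibroblasts. Cx3cl1 (-1.69 ± 0.33) and Il34 (-1.01 ± 0.18), ligands for receptors of mononuclear phagocytes, were lower too. Cxcl12 was not called, with 167 to 237 CPM in Pi16 fibroblasts and 199 to 242 CPM in Smoc2 fibroblasts.

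Complement genes were higher in Pi16 fibroblasts for 8 of 14 tested by edgeR and lower for 0, with a median log2 difference of 0.57. DESeq2 called 6 higher and 0 lower, and at an unadjusted p under 0.05 by edgeR 9 were higher and 0 lower. C3, the central complement protein, lay at 1492, 1252, 1737 and 2882 CPM against 369, 603, 661 and 1435 CPM in Smoc2 fibroblasts (1.36 ± 0.21). C4b lay at 75.8, 96.0, 138 and 282 CPM against 6.20, 24.7, 39.1 and 93.6 CPM (1.96 ± 0.24), and Cfb, factor B of the alternative pathway, at 35.9, 37.0, 51.3 and 133 CPM against 2.82, 20.7, 26.1 and 50.04 CPM (1.43 ± 0.30). Each was higher in Pi16 fibroblasts within every library, and OSA replicate 3 was the highest library in each class. Ptx3, a soluble pattern recognition protein, lay at 60.2 to 81.3 CPM against 3.38 to 17.5 CPM (3.15 ± 0.26). In the acute-phase and innate defence list Ptx3 was the 1 gene higher and 6 of 14 were lower, among them Saa1 (-4.32 ± 0.23) and Steap4 (-1.29 ± 0.10). The rule limits the related gene Saa3 in both classes. Members named as the exceptions of a list were chosen after their values were seen.

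The matrix genes divided by type. In the microfibril and elastic-fibre list 9 of 15 were higher, with a median of 0.49: Efemp1 (2.15 ± 0.18) and Eln, elastin itself (1.04 ± 0.12), were among them, and Fbn1, the microfibril protein fibrillin, lay at 686 to 852 CPM against 269 to 397 CPM (1.15 ± 0.07). The 1 lower member was Emilin1 (-0.61 ± 0.14). Hyaluronan and proteoglycan genes were higher for 8 of 19 and lower for 5. Ugdh, which makes the sugar nucleotide for hyaluronan, lay at 817, 913, 903 and 761 CPM against 147, 192, 233 and 194 CPM (2.16 ± 0.08). Tnfaip6, which cross-links hyaluronan, lay at 1895, 2186, 1282 and 1426 CPM against 657, 686, 540 and 494 CPM (1.49 ± 0.07), and the hyaluronan synthase Has1 was higher by 0.83 ± 0.08. The small proteoglycans went the other way, with Lum at -1.01 ± 0.07 and Dcn, at 5508 to 8227 CPM in members, at -0.57 ± 0.06.

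Collagens were lower in Pi16 fibroblasts for 9 of 17 and higher for 2, with a median of -0.51. Col15a1, a collagen of basement membrane zones, lay at 64.0, 81.1, 110 and 99.6 CPM against 534, 556, 558 and 555 CPM (-2.66 ± 0.10; adjusted p = 4.4e-12 by edgeR), and its Smoc2 fibroblast levels were nearly the same in the 4 libraries. Col4a1 (-1.37 ± 0.07) and Col4a2 (-1.28 ± 0.07), the network collagens of basement membranes, were lower as well. Col14a1, which binds to the surface of collagen fibrils, was higher by 1.33 ± 0.07 and Col3a1 by 0.22 ± 0.07. The fibrillar genes Col1a1 (0.12 ± 0.08) and Col1a2 (0.09 ± 0.07) were not called, with 1154 to 2521 CPM of Col1a1 in Pi16 fibroblasts and 1078 to 1953 CPM in Smoc2 fibroblasts. Of the matricellular list 4 of 19 were higher, led by fibronectin (Fn1, 2.56 ± 0.29), and 10 lower, led by Thbs1 (-2.21 ± 0.13).

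**Figure D3:**
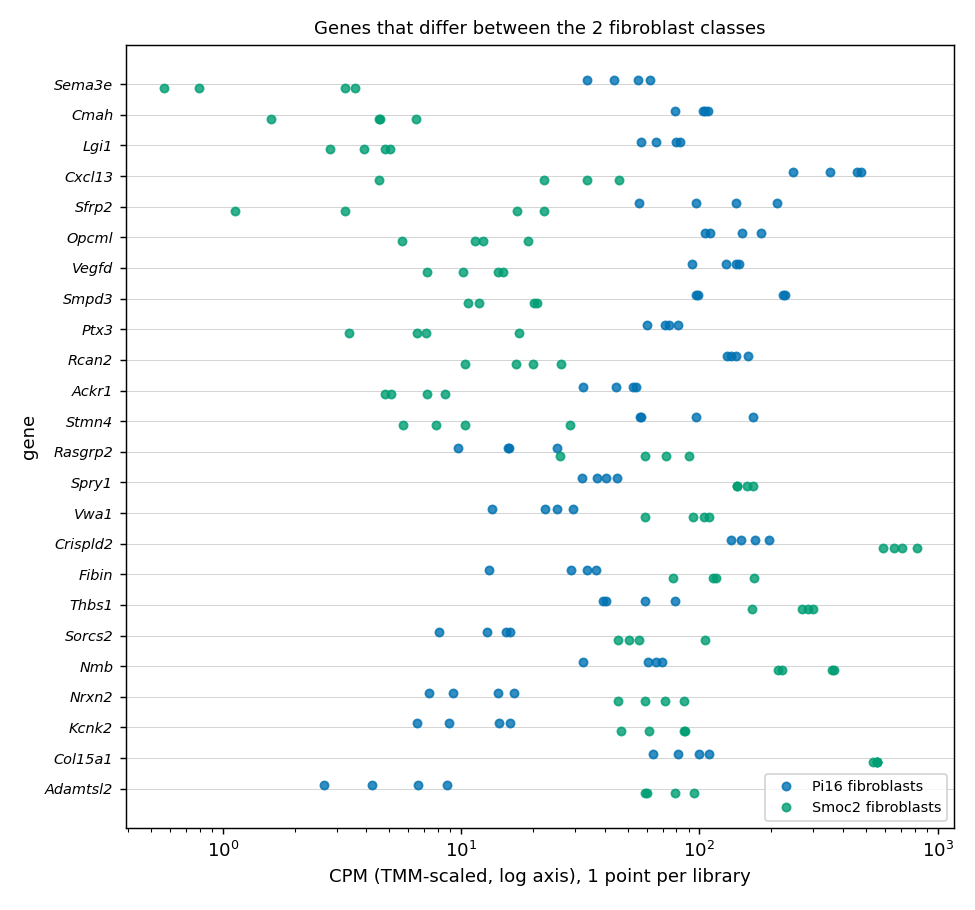
CPM (log axis) of the 12 genes with the largest differences in each direction, Pi16 against Smoc2 fibroblasts; each point is 1 library, blue for Pi16 and green for Smoc2 fibroblasts. Apart from Rasgrp2, where the highest Pi16 value nearly meets the lowest Smoc2 value, the points of the classes lie apart.

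Markers reported for Pi16 fibroblasts in other tissues, apart from the rule genes, were higher in 28 of 30. Their median log2 difference was 1.41. Cmah, which makes a sialic acid, lay at 78.9 to 108 CPM against 1.59 to 6.43 CPM (4.49 ± 0.19), and Opcml, a neural cell adhesion protein, at 106 to 181 CPM against 5.64 to 19.1 CPM (3.55 ± 0.23). Dpp4 lay at 43.0, 51.8, 35.5 and 26.7 CPM against 3.38, 11.1, 3.91 and 1.43 CPM (3.06 ± 0.24). Wnt2, a Wnt ligand, was scarce at 7.34, 6.16, 14.7 and 17.5 CPM but was at most 2.14 CPM in Smoc2 fibroblasts (3.22 ± 0.42). Ly6a, which encodes the stem cell antigen Sca-1, was abundant in both classes and higher by 0.91 ± 0.08. The 2 markers that were not called were Tppp3 (0.03 ± 0.08) and Bmp7 (-0.92 ± 0.36). Of 20 interstitial fibroblast markers outside the rule 14 were lower, with a median of -0.98, among them the lipocalin Apod (-1.95 ± 0.07), the lipid droplet gene G0s2 (-1.85 ± 0.11) and the steroid-activating enzyme Hsd11b1 (-1.44 ± 0.10). The 2 higher ones were Vit (0.84 ± 0.11) and Fmo2 (0.43 ± 0.09).

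Signalling genes differed member by member. In the Wnt list 5 of 13 were higher and 2 lower: the secreted Wnt modulator Sfrp2 lay at 55.9, 142, 96.4 and 212 CPM against 1.13, 22.3, 3.26 and 17.2 CPM (3.63 ± 0.28), and Axin2, a Wnt target gene, was higher by 1.60 ± 0.33. In the TGF-beta and BMP list 5 of 22 were higher and 4 lower. The ligands Inhba (-2.46 ± 0.16), Bmp5 (-1.98 ± 0.18) and Bmp4 (-1.50 ± 0.08) were lower. Bmp4 lay at 71.6 to 98.7 CPM in Pi16 fibroblasts and at 227 to 252 CPM in Smoc2 fibroblasts. In the insulin-like growth factor list Igfbp5 (1.52 ± 0.07) and Igfbp4 (1.10 ± 0.07), which bind the growth factors, were higher, and Pappa, a protease that cuts Igfbp4, was lower (-2.01 ± 0.18).

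Immediate early genes were lower for 14 of 23 and higher for 2, with a median of -0.44. Jun lay at 3910, 3760, 2703 and 2426 CPM against 6682, 6419, 4158 and 4194 CPM (-0.74 ± 0.06). Heat shock genes were lower for 7 of 13 and higher for 1, with Hspa1a at -0.95 ± 0.07. Ribosomal protein genes were higher for 36 of 36, with a median of 0.38 and a range from 0.24 ± 0.06 (Rpl10) to 0.51 ± 0.07 (Rps24). The part of either list in the other class differences was not tested.

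**Figure D4:**
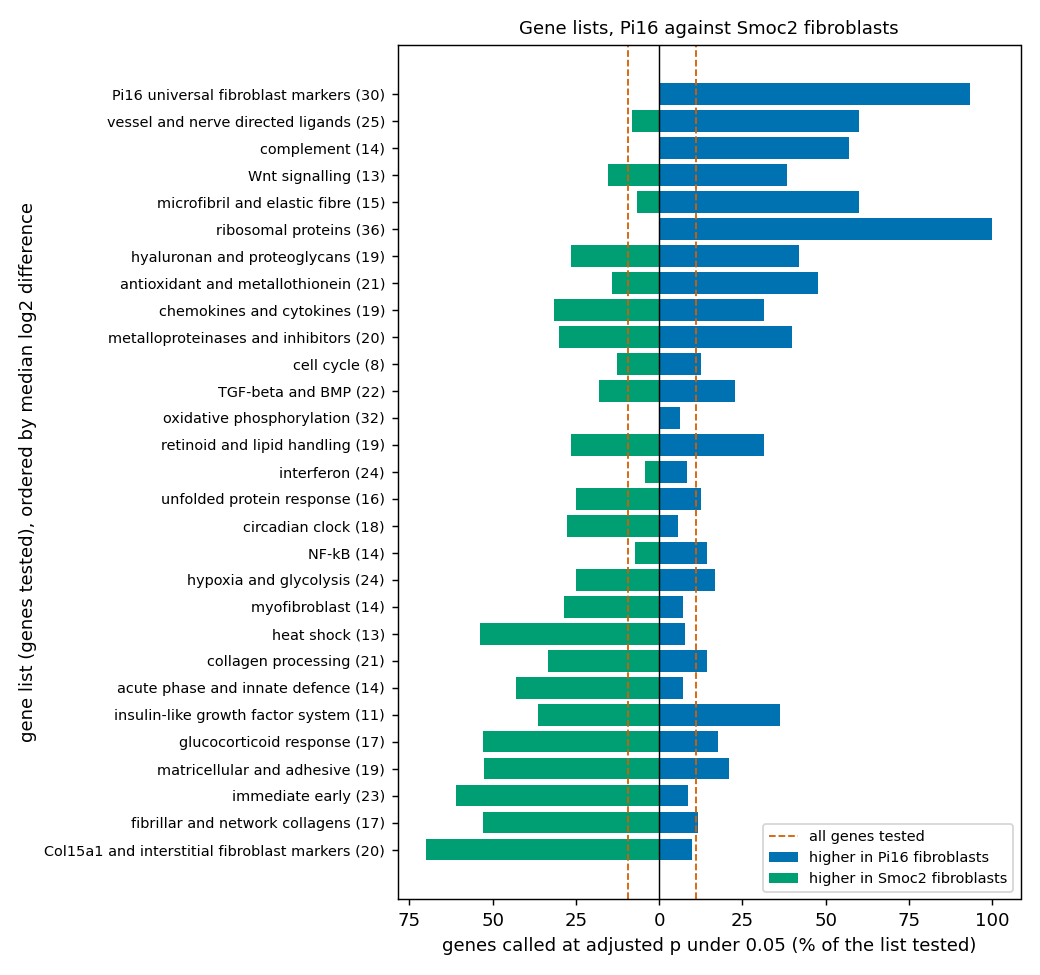
Share of each gene list called higher in Pi16 fibroblasts (blue, right) or in Smoc2 fibroblasts (green, left), in percent of the list's tested genes, which are given in brackets; dashed lines mark the 11.1% and 9.27% of all genes. Pi16 fibroblast markers, ligands, complement, elastic-fibre and ribosomal genes lie to the right, and interstitial markers, collagens and immediate early genes to the left.

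The acute-phase fibroblasts were too few for a test, with 2, 13, 17 and 91 barcodes in the control and OSA replicates 1, 2 and 3. Their Pi16 level was 281, 415, 3165 and 924 CPM, against 2070, 2256, 2534 and 2815 CPM in members. Pcolce2 was at 632, 75.5, 527 and 107 CPM against 752, 724, 725 and 685 CPM. Pi16 and Pcolce2 were used to choose the members, so these levels are a description. Cxcl13, outside the rule, was at 0, 6.29, 999 and 128 CPM of class totals against 465, 349, 446 and 227 CPM in members. In OSA replicate 2 it was thus higher in the 17 acute-phase barcodes than in members. Of the acute-phase barcodes, 2, 5, 16 and 59 met the other conditions for members, and the control values rest on 2 cells.

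Within Pi16 fibroblasts, the design's main question was which genes differed between OSA and control. Few passed the test: Slpi, Cthrc1, Gsta3 and Chst11 rose, and Cxcl9 and Slurp1 fell. Of 12390 genes tested by edgeR's quasi-likelihood test, 4 rose (0.0323%) and 2 fell (0.0161%), 0.0484% in all, at an adjusted p under 0.05, while 531 had an unadjusted p under 0.05. The median log2 difference over all genes was 0.02. The values below are CPM scaled within this comparison, so they differ slightly from those of the class comparison. With OSA replicate 3 left out, 1 gene was called and 0 of these 6 kept their call, whereas 127 genes were called without OSA replicate 1 and 69 without OSA replicate 2, with all 6 among them each time. Chst11 and Cxcl9 met the level set for naming, Cthrc1 is named as a list member, and Slpi, Gsta3 and Slurp1 were named after their values were seen.

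Chst11, a sulfotransferase that makes chondroitin 4-sulfate, lay at 11.2 CPM in the control and at 50.4, 39.6 and 42.6 CPM in OSA replicates 1, 2 and 3. Every OSA library was above the control, and the fitted rise was 1.97 ± 0.33 on the log2 scale (SE; adjusted p = 0.0189). Smoc2 fibroblasts held 21.3 CPM of Chst11 in the control and 49.4, 72.8 and 104.5 CPM in OSA. Endothelial barcodes held more of it than members in every library, with 105.6 CPM in the control and 95.3, 92.02 and 87.7 CPM in OSA. Slpi, a secreted inhibitor of neutrophil elastase, lay at 0.509 CPM in the control, on 2 UMIs, and at 18.5, 17.9 and 25.3 CPM in OSA, on 37, 48 and 88 UMIs. The ratio of the pooled OSA members to the control was 40.6 (95% counting interval 11.1 to 338; adjusted p = 0.000426 by edgeR). Slpi also lay at 1.55 CPM in control endothelial barcodes and at 11.5, 16.1 and 34.5 CPM in those of OSA, and at 6.61 and 70.7, 78.1 and 158 CPM over whole libraries. The part of free RNA in its rise among members was not tested.

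Cthrc1, a secreted protein of collagen-producing fibroblasts, was at 3 UMIs in the control and 18, 33 and 48 in OSA, or 0.763 against 8.98, 12.3 and 13.8 CPM. The pooled ratio was 15.5 (95% counting interval 5.15 to 76.4; adjusted p = 0.0189 by edgeR). Endothelial barcodes held 1.68 CPM of it in the control and 3.10, 2.26 and 6.10 CPM in OSA. Gsta3, a glutathione transferase, lay at 1.02 CPM in the control, on 4 UMIs, and at 8.48, 13.5 and 23.6 CPM in OSA (3.89 ± 0.69; adjusted p = 0.0469). In endothelial barcodes it was at most 1.11 CPM. DESeq2 did not call Cthrc1, Gsta3 or Slurp1 (adjusted p of 0.283, 0.102 and 0.518).

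Cxcl9, an interferon-inducible chemokine for T cells, lay at 68.5 CPM in the control and at 19.96, 19.82 and 20.15 CPM in OSA, and the 3 OSA libraries were nearly equal. It fell by 1.77 ± 0.26 on the log2 scale (adjusted p = 0.00574). Smoc2 fibroblasts held 29.4 CPM of Cxcl9 in the control and 33.0, 25.8 and 25.4 CPM in OSA. Endothelial barcodes held 67.0 CPM in the control and 46.9, 50.9 and 44.2 CPM in OSA, and whole libraries 49.7 against 32.1, 29.7 and 20.7 CPM, so the control was also the highest library there. Slurp1, a small secreted protein of the Ly6 family, lay at 11.96 CPM in the control, on 47 UMIs, and at 0.998, 1.496 and 0.288 CPM in OSA, on 2, 4 and 1 UMIs. The pooled control level was 14.3 times the OSA level (95% counting interval 6.43 to 37.5).

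**Figure D5:**
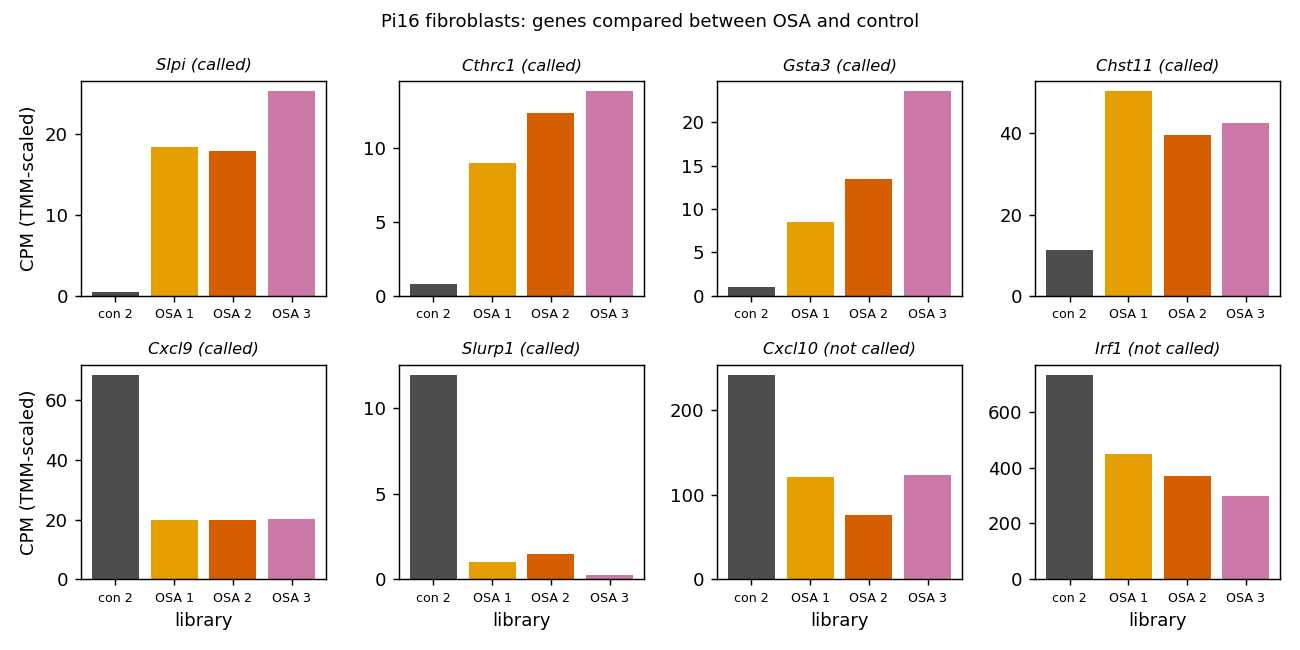
CPM of 8 genes in Pi16 fibroblasts of the control library (grey) and the 3 OSA libraries (colours), 1 bar per library, with the test's call in each title; each axis starts at 0. The 6 called genes have all OSA bars on 1 side of the control, and so do Cxcl10 and Irf1, which were not called.

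Interferon-related genes other than Cxcl9 did not pass the test. In the interferon list 0 of 26 were called by edgeR or DESeq2, 2 were lower at an unadjusted p under 0.05, 23 had a negative difference, 12 were lower in every OSA library and 1 was higher in every OSA library, with a median of -0.26. Over all genes tested 23.5% were lower and 22.8% higher in every OSA library, and 52.6% had a positive difference. Irf1, a transcription factor induced by interferon, lay at 731, 450, 370 and 297 CPM in the control and OSA replicates 1, 2 and 3 (-0.98 ± 0.26; adjusted p = 0.366 by edgeR). Cxcl10, a chemokine of the same receptor as Cxcl9, lay at 241, 120, 75.9 and 124 CPM (-1.18 ± 0.26; adjusted p = 0.173). The control lay above all OSA libraries for both genes. Irf1 was also highest in the control in Smoc2 fibroblasts (1014 against 674, 526 and 463 CPM), in endothelial barcodes (858 against 736, 609 and 574 CPM) and over whole libraries (764 against 581, 453 and 337 CPM). Cxcl10 was highest in the control in Smoc2 fibroblasts too, with 125 CPM against 93.9, 63.6 and 100.4 CPM. Ifi27l2a, at 764, 534, 621 and 693 CPM, showed a smaller gap, and B2m, the light chain of class I molecules, at 881, 769, 585 and 876 CPM nearly none in OSA replicate 3.

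In the myofibroblast list 1 of 15 genes, Cthrc1, was called. A positive difference was found for 14, and 11 were higher in every OSA library, with a median of 0.56. Of all genes tested, 52.6% had a positive difference and 22.8% were higher in every OSA library. Runx1, a transcription factor, lay at 119, 192, 268 and 205 CPM (0.90 ± 0.28) and the contractile gene Tagln at 46.6, 76.4, 66.2 and 107 CPM (0.84 ± 0.29). Acta2, smooth muscle actin, lay at 107, 136, 97.6 and 129 CPM, so the libraries overlapped. Collagens were positive for 13 of 17, with 0 called by edgeR or DESeq2 and 4 higher at an unadjusted p under 0.05. Col1a1 lay at 1120, 1408, 1396 and 2448 CPM (0.64 ± 0.33) and Col12a1, a collagen that binds fibrils and is abundant in tendon, at 24.4, 44.9, 84.5 and 57.9 CPM (1.36 ± 0.33; adjusted p = 0.264 by edgeR). Tenocyte markers summed to 71.7 CPM in control members and to 143, 216 and 321 CPM in OSA members, all 6 that could be tested were positive, and the tendon gene Fmod lay at 11.96, 32.4, 47.5 and 153 CPM. Of the defining tendon genes, Tnmd and Thbs4 are limited by the rule. The part of tendon transcripts in the collagen values was not tested.

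Transcripts of other cells differed between the libraries as well. Immune markers summed to 61.4 CPM in control members and to 157, 801 and 487 CPM in OSA members. Ptprc was at 0 by the rule, and Cd3e was at 0 in OSA replicates 1 and 2. S100a9, an alarmin of neutrophils, lay at 2.80, 28.9, 573 and 27.6 CPM, and Lyz2, the lysozyme of myeloid cells, at 14.5, 50.4, 64.7 and 243 CPM, so each peaked in a different OSA library. Schwann cell markers summed to 749 CPM in the control and 688, 394 and 573 CPM in OSA. Erythroid markers summed to 149 CPM in control members and to 304, 327 and 173 CPM in OSA members. All 4 that could be tested were higher in every OSA library, against 22.8% of all genes, and at an unadjusted p under 0.05. None of these genes was called by edgeR or DESeq2, 2 of 9 tested immune markers were higher and 4 of 9 Schwann cell markers lower at an unadjusted p under 0.05, and their part in the OSA comparison was not tested.

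The largest fitted differences that were not called included further genes with the control on 1 side of all OSA libraries. Csmd1, a membrane protein with complement control domains, lay at 40.2, 88.3, 128 and 192 CPM (1.77 ± 0.39; adjusted p = 0.264 by edgeR). Prg4, the lubricating proteoglycan of joints, lay at 125, 355, 1018 and 423 CPM and Timp1, an inhibitor of metalloproteinases, at 34.4, 54.4, 101 and 167 CPM. In the other direction Ppp2r2b, a regulatory subunit of protein phosphatase 2A, lay at 74.6, 33.4, 34.4 and 21.3 CPM (-1.34 ± 0.28; adjusted p = 0.116) and Stmn4, a microtubule regulator, at 163, 94.3, 55.3 and 54.7 CPM. Of 30 Pi16 fibroblast markers 0 were called by edgeR or DESeq2, and 1 was higher and 3 lower at an unadjusted p under 0.05. Their median was -0.13, and 5 were higher and 9 lower in every OSA library. Among all genes tested, 22.8% were higher and 23.5% lower in every OSA library, so these counts set the markers little apart. Vegfd lay at 125, 139, 90.5 and 142 CPM, Igfbp5 at 1419, 1322, 1770 and 1499 CPM and Cxcl13 at 461, 342, 443 and 240 CPM, with Cxcl13 lower in each OSA library but not called (-0.43 ± 0.29).

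Finally, the OSA difference in Pi16 fibroblasts was compared with that in Smoc2 fibroblasts by a class-by-group term with the library as a block. The term was positive, meaning a more positive OSA difference in Pi16 fibroblasts, for 13 of 11849 genes (0.11%), and negative for 18 (0.152%). Myh11, Acta2 and Tpm2 were among the positive ones, and C3, C4b, Cfb, Cxcl13 and Cxcl9 among the negative ones. Beside these 31 calls by edgeR (0.262%), DESeq2 called 1 gene, Cxcl13, and 9 genes were called without the limit on Saa3 and Serpina3n.

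Myh11, the smooth muscle myosin heavy chain, lay at 42.6 CPM in control and 86.7, 47.6 and 46.1 CPM in OSA Pi16 fibroblasts, and at 83.0 CPM in control and 72.9, 25.9 and 22.0 CPM in OSA Smoc2 fibroblasts (term 1.61 ± 0.26; adjusted p = 0.000133 by edgeR). Acta2 gave a term of 0.92 ± 0.19 and Tpm2, a tropomyosin, 1.43 ± 0.28. Of 10 mural cell markers 2 were called, and all 10 had a positive term, against 49.4% of all genes tested. Their summed level was 366 CPM in control and 548, 423 and 463 CPM in OSA Pi16 fibroblasts against 643 CPM in control and 550, 315 and 392 CPM in OSA Smoc2 fibroblasts. Endothelial barcodes held 245 CPM of Myh11 in the control and 186, 164 and 102 CPM in OSA. The part of mural transcripts in these terms was not tested.

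Of 16 complement genes tested, 3 had a negative term that was called, C3, C4b and Cfb, and 0 a positive one. The whole list summed to 2075 CPM in control and 2624, 2415 and 3797 CPM in OSA Smoc2 fibroblasts, and to 3791 CPM in control and 3772, 3865 and 5897 CPM in OSA Pi16 fibroblasts. C4b lay at 75.6 CPM in control and 95.3, 138 and 281 CPM in OSA Pi16 fibroblasts, and at 6.17 CPM in control and 24.3, 38.9 and 92.9 CPM in OSA Smoc2 fibroblasts (term -1.86 ± 0.38). C3 gave -0.86 ± 0.15, with a 1.31-fold OSA mean over control in Pi16 fibroblasts and 2.43-fold in Smoc2 fibroblasts, and Cfb gave -2.48 ± 0.54. None of the 3 was called in Pi16 fibroblasts alone, and all 3 lost the call of the term without the limit on Saa3 and Serpina3n. In endothelial barcodes C3 lay at 39.9 CPM in the control and 51.7, 62.8 and 228 CPM in OSA. Cxcl9 gave -1.72 ± 0.33, with Pi16 fibroblasts at 70.3 CPM in control and 20.4, 20.3 and 20.7 CPM in OSA.

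Cxcl13 had the smallest adjusted p among the genes named, with a term of -3.31 ± 0.38 (adjusted p = 5.18e-09 by edgeR). It lay at 474 CPM in control and 349, 455 and 246 CPM in OSA Pi16 fibroblasts, and at 4.48 CPM in control and 45.5, 33.7 and 22.0 CPM in OSA Smoc2 fibroblasts. The Smoc2 values rest on 8, 58, 52 and 31 UMIs in 8, 4, 15 and 7 cells. The single highest cell held 1, 55, 14 and 23 of these UMIs. Most UMIs of OSA replicates 1 and 3 thus came from 1 cell each. The call of the term was lost with a marker minimum of 5 UMIs (adjusted p = 0.995).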

How the data were processed

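Each library is a matrix of raw UMI counts of 33696 genes, which the authors made with Cell Ranger (version 9.0.1 per the file headers) on mouse build GRCm39, per the submitters' processing notes. Counting settings are not given in the sources used here.

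The rule was applied to the deposited counts of barcodes with at least 300 genes. The members and gene lists were chosen with earlier results of these data known. Doublets were called with Scrublet in scanpy 1.11.5 (expected rate 0.1) and kept, and leaving them out was an alternative. Counts were summed per library and class and tested with edgeR 4.0.16 (TMM scaling, filterByExpr, robust quasi-likelihood fit) in R 4.3.3, without the 16 genes of the rule, with Benjamini-Hochberg adjustment over all genes tested and a threshold of 0.05. DESeq2 1.42.0 was an alternative. CPM were scaled within each comparison, and levels quoted for endothelial barcodes, whole libraries and the rule genes are CPM of class totals. Endothelial barcodes had at least 3 UMIs of Pecam1 and Cdh5 and none of Ptprc or Pdgfra. Shares have exact Clopper-Pearson 95% intervals, which, like the count ratios, cover counting error only. Thinning drew 2000 UMIs per barcode and left out shallower ones.

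Named genes were the 12 largest called differences in each direction at a mean log2 CPM of at least 5 with the same sign in every library (6 for the class-by-group term), up to 6 called members of each list by size, and up to 4 abundant list members as values. Where fewer passed in the OSA comparison, the largest fitted differences were given as values, to 10 a direction.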

Additional observations from a re-analysis of the deposited data

Results flagged for a closer look

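The OSA difference differed between Pi16 and Smoc2 fibroblasts for 31 genes, by edgeR's test of the difference itself. The 6 largest positive log2 differences at a mean log2 CPM of at least 5 were those of the contractile genes Myh11 (1.61), Tpm2 (1.43) and Acta2 (0.92), of Ror1 (0.63), a Wnt5a receptor, of Ier3 (0.59), a stress-response gene, and of Pde4b (0.59), a phosphodiesterase that breaks down cyclic AMP. The 6 largest negative ones were those of Hp (-8.29), the haemoglobin-binding haptoglobin, of Cxcl13 (-3.31), Plac8 (-2.79), Cfb (-2.48), Opcml (-1.89) and C4b (-1.86). For Myh11, Tpm2, Acta2, Ror1, Ier3 and Pde4b, the OSA mean over control was 1.41, 1.46, 1.12, 0.96, 1.55 and 1.16 in Pi16 fibroblasts. In Smoc2 fibroblasts this ratio was 0.49, 0.55, 0.61, 0.62, 1.03 and 0.77. A positive term was therefore not always a higher OSA level in Pi16 fibroblasts.

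Hp lay at 18.3 CPM in control and 9.69, 31.5 and 109 CPM in OSA Pi16 fibroblasts, and at 0 CPM in control and 17.3, 14.9 and 118 CPM in OSA Smoc2 fibroblasts, so its fitted value depends on the prior count and is no bound. Plac8 lay at 57.3 CPM in control and 69.3, 67.2 and 126 CPM in OSA Pi16 fibroblasts, and at 5.61 CPM in control and 30.6, 68.1 and 77.3 CPM in OSA Smoc2 fibroblasts. For Hp, Cxcl13, Plac8, Cfb, Opcml and C4b, the control Smoc2 fibroblasts were the lowest of the 8 sums. Most Cxcl13 UMIs of Smoc2 fibroblasts in OSA replicates 1 and 3 came from 1 cell each.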

How the results depend on the processing

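The OSA comparison called 66 genes without the filter on low counts and 1 to 127 when each OSA library was left out in turn. The class comparison called 1151 genes with DESeq2. The class-by-group term called 1 gene with DESeq2, 11 with a marker minimum of 2 UMIs, 18 with a minimum of 5, 9 without the limit on Saa3 and Serpina3n, and 12 to 54 when each OSA library was left out in turn. The cause was not tested. Alternative runs were compared gene by gene for 24 named genes of the class comparison, 24 of the OSA comparison and 16 of the term. Genes named in the class comparison only as list members, and list members given as values in the OSA comparison, were not checked. No direction reversed among the genes checked or in the shares. The genes checked kept their side of the threshold in 235 checks of the class comparison, 197 of the OSA comparison and 99 of the term. They lost a call in 5, 11 and 61, and gained a call in 32 checks of the OSA comparison. The comparison with acute-phase fibroblasts was not run, because 3 libraries held under 30 such cells. No paired analysis was possible because control replicate 2 was the only control library with a matrix here, so the groups share 1 number. With 1 control library, differences between OSA and control cannot be told apart from differences between single libraries.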
